A study of Mus musculus with 6 samples.

Results

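The genes described here are the transcription factor NRF2, its sensor KEAP1, and the antioxidant, detoxifying and metal-binding genes that are commonly counted among NRF2 targets or antioxidant enzymes. The list holds 46 genes, chosen by name and function and matched to probes through the RefSeq accession of each probe. Of these, 45 had a probe, and 44 were bright enough, clearly above background on 3 or more of the 6 arrays, to be tested among 25777 genes and transcripts. Gsta1, a glutathione transferase, had no probe by accession, and Slc7a11, the cystine carrier, did not pass the filter.

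NRF2, the product of Nfe2l2, is held in the cytoplasm and marked for destruction by KEAP1. When reactive compounds modify KEAP1, NRF2 builds up, enters the nucleus with a small MAF partner and binds antioxidant response elements in the promoters of genes for glutathione synthesis, thioredoxin recycling, quinone reduction and haem breakdown. In adipose tissue macrophages and stromal cells these genes handle peroxides, lipid aldehydes and iron. Propolis is a resin collected by bees, and its electrophilic and phenolic components are known to act on the KEAP1 and NRF2 pair in other cells.

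The study used male ob/ob mice (C57BL/6JHamSlc-ob/ob), which lack working leptin and become obese, so every sample of both groups carried that mutation. The propolis group of 3 samples received an ethanol extract of Brazilian propolis at 100 mg/kg into the peritoneal cavity 2 times a week for 12 weeks. The vehicle group of 3 samples received dilute DMSO and ethanol for the same 12 weeks. RNA came from the vascular stromal fraction of mesenteric fat, the mixed non-fat cells that collagenase releases, after red cells had been lysed, and each sample was read on a 1-colour Agilent array. The labels call the samples biological replicates without giving the number of mice in each, so p-values measure the spread between these samples, and the age of the mice was not stated in them.

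Levels are log2 fluorescence relative to the 75th percentile of the same array, so 0 is that percentile and 1 unit is a doubling. A level is compared only with the same gene on another array, since probes differ in brightness. Between 61.1% and 66.7% of spots stood well above background on an array, and the number of arrays limits the precision. Macrophage markers had a mean level of 4.36 to 4.64 on propolis arrays and 4.20 to 4.66 on vehicle arrays. Stromal progenitor markers lay at 5.64 to 5.87 on propolis arrays and 5.63 to 5.80 on vehicle arrays, so markers of both expected cell types were bright throughout. Single arrays also carried markers of neighbouring organs. Vehicle 2 had pancreatic acinar markers at 4.78, against -3.60 to -2.56 on the other 5 arrays, and vehicle 3 had intestinal epithelial markers at 4.62, against -3.28 to -0.90 on the others. B cell markers lay at -2.41 to -1.39 on propolis arrays and reached 2.45 on vehicle 2. Mesothelial markers lay at 2.47 to 3.56 on propolis arrays and 0.70 to 2.08 on vehicle arrays, without overlap.

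Promoter sequences are shown for 7 members chosen, with their values known, from those whose window holds a core that NRF2 or the metal sensor MTF1 is known to read. They are the well known NRF2 targets Prdx1, Gclm, Txnrd1 and Srxn1, then Gstm5, whose groups did not overlap, and the metallothionein pair. Each RefSeq window holds 300 bases, most of them before the gene's listed start, on the mouse assembly GRCm38.p6, and 40 of the 46 members had at least 1. Capitals mark a match to TGACNNNGC, the core of the antioxidant response element, on either strand. The first 5 genes lie on the forward strand and are read 5′ to 3′.
Prdx1 chr4:116685426-116685514: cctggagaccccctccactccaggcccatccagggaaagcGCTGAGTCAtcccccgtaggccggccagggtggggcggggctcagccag
Gclm chr3:122245383-122245471: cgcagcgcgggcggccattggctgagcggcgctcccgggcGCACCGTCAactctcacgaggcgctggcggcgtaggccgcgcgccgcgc
Txnrd1 chr10:82859074-82859162: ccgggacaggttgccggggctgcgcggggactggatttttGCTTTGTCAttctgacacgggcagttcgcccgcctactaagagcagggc
Srxn1 chr2:152105512-152105573: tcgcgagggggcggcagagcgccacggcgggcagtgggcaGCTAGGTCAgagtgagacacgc
Gstm5 chr3:107895772-107895860: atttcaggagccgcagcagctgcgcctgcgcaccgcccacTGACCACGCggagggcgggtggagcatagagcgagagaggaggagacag

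Counted with the listed start as 0, the leftmost base of the match is at -133 in Prdx1, -134 in Gclm, -92 in Txnrd1, -42 in Gstm5 and 28 in Srxn1. Txnrd1 has further listed starts whose windows hold no match, and only its window with the match is shown. The core was found in the windows of 11 of the 40 members (27.5%): Gclm, Gsta3, Gstm5, Mgst1, Mt2, Nfe2l2, Prdx1, Sod1, Srxn1, Txnrd1 and Ugdh. Of all 27025 genes with a window, 14.0% held it, and it lay in 12.4% of 32851 windows. The longer form TGACTCAGC, which also holds an AP-1 core, lay in 0.454% of windows and, among members, in Prdx1 and Mt2. The matched letters are a description of these windows and show no binding, and enhancers further out, where Hmox1 and Nqo1 are known to carry elements, lie outside them. The 11 members with the core had a median difference of 0.0087 between groups, 6 with a higher and 5 with a lower propolis mean. The 27 tested members whose windows lack it had a median of 0.099, 16 higher and 11 lower. Only the spellings above were scanned, so a member with another spelling of the element would count here as lacking it.

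The metallothionein pair is shown with the metal response core in capitals, TGCACNC or TGCGCNC on either strand. Mt1 and Mt2 are neighbours on chromosome 8, and both genes lie on the forward strand.
Mt1 chr8:94179051-94179137: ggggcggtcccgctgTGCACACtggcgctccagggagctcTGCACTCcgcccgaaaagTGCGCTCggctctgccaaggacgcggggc
Mt2 chr8:94172368-94172667: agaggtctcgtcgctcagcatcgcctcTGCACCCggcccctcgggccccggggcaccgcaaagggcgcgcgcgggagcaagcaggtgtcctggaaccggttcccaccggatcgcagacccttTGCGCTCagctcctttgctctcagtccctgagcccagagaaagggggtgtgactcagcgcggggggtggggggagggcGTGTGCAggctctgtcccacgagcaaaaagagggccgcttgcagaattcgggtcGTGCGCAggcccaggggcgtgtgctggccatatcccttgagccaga

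The Mt1 window had 3 such matches and the Mt2 window 4. The Mt2 window also holds TGACTCAGC, left in lower case above. The metal core was found for 11 of the 40 members (27.5%), against 28.2% of all genes with a window.

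No member passed the test across all genes. At an adjusted p below 0.05 (limma with Benjamini-Hochberg adjustment over 25777 genes), 0 of 44 members were called, where 0.834% of all genes tested were called, 0.722% higher in propolis and 0.113% lower. At an unadjusted p below 0.05 there were 6 members with a higher propolis mean, Gpx3, Gpx8, Gstm5, Sod3, Prdx2 and Gsta4, and 1 with a lower one, Gstm1. Over all genes 7.24% and 4.48% did so, so 7 of 44 stands a little above the 11.7% of the background. The split of 6 to 1 leans more to the higher side than that of all genes. The counts are small, and the split was not tested. The propolis mean was higher in 27 of 44 members (61.4%), against 49.6% of all genes, and the median difference was 0.15 for members and -0.0041 for all genes. Groups did not overlap for 8 of 44 members (18.2%), 5 higher and 3 lower in propolis, where 17.4% of all genes had groups without overlap, 10.8% higher and 6.62% lower. An exact permutation test of 3 samples against 3 cannot give a p under 0.1, the value that a gene without overlap reaches.

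**Figure D1:**
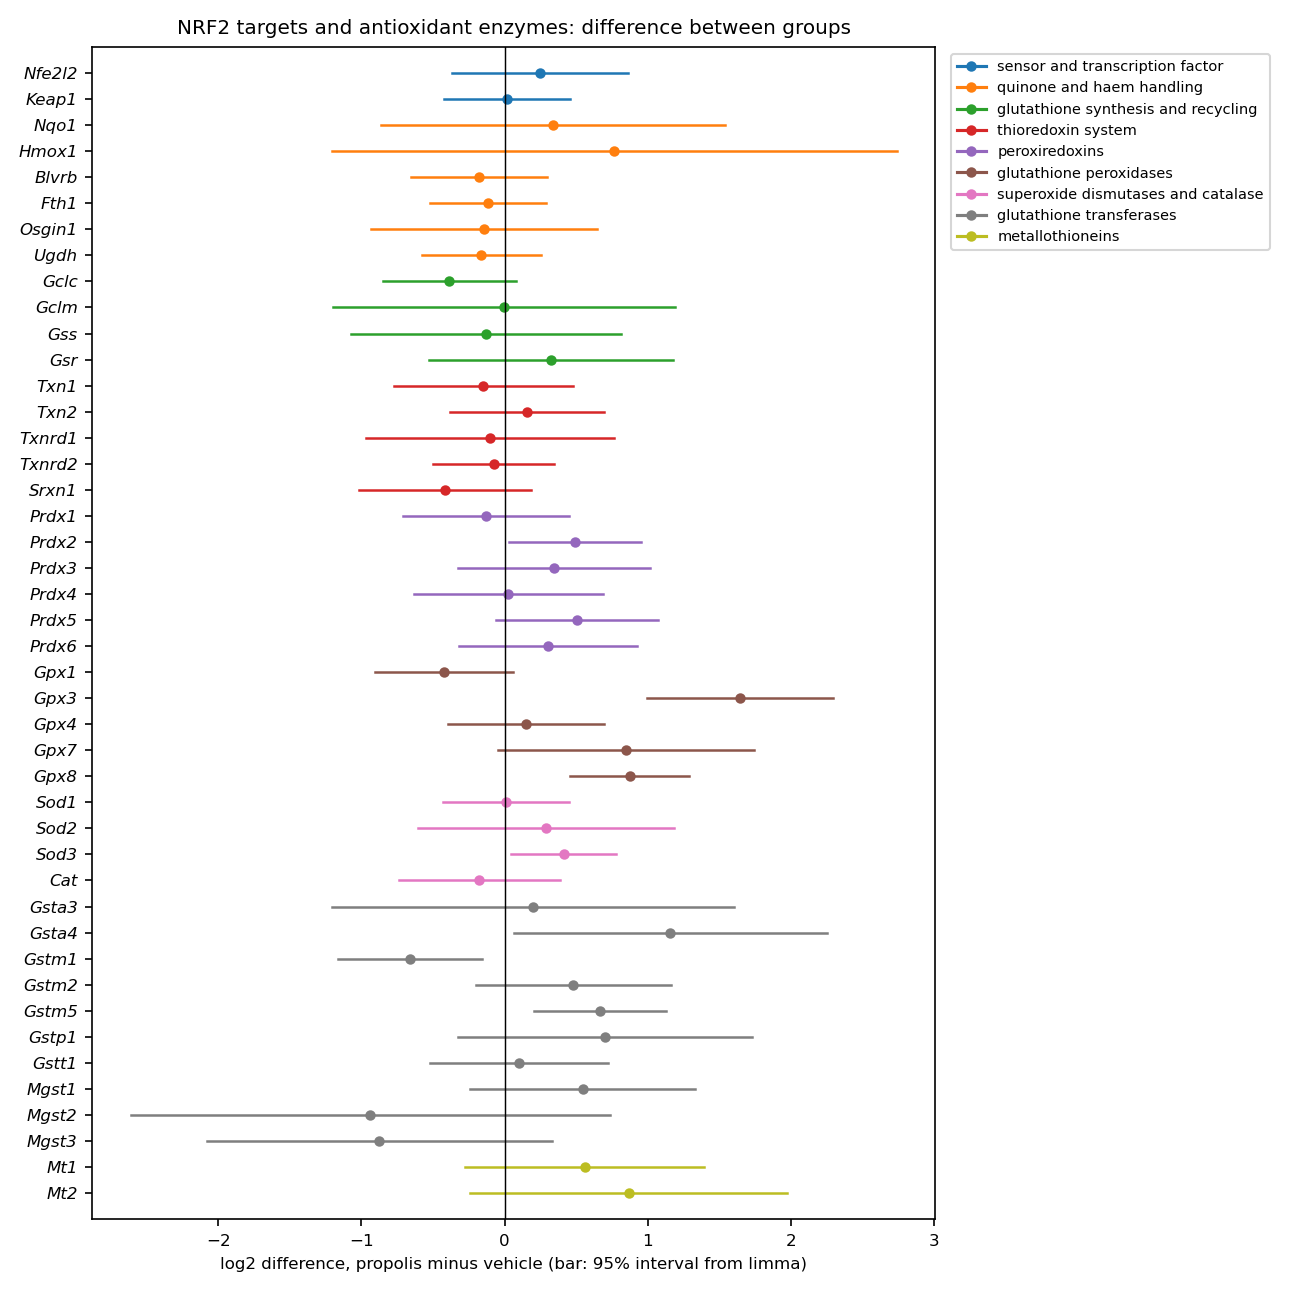
The plot gives the log2 difference, propolis minus vehicle, of the 44 tested members down the page, as points with 95% intervals from limma, coloured by role. Gpx3 at 1.65 stands farthest to the right, Mgst2 at -0.94 farthest to the left, and most intervals span 0.

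Counts are given by role, and in most roles members went both ways. Among the 5 tested glutathione peroxidases 4 had a higher propolis mean, with a median difference of 0.85 for the 5. The 6 peroxiredoxins had a median of 0.32 with 5 higher, the 10 tested glutathione transferases 0.34 with 7 higher, and the 4 superoxide dismutase and catalase genes 0.15 with 3 higher. Against these, the 4 tested genes of glutathione synthesis and recycling had a median of -0.066 with 3 lower, the 5 thioredoxin system genes -0.10 with 4 lower, and the 6 quinone and haem genes -0.13 with 4 lower. Both metallothioneins had higher propolis means, with a median of 0.71. These group sizes are small, and no group was tested as a set. Leaving out each array in turn kept the log2 difference within 1.5 times its value, either way, for 10 of 44 members, Prdx2, Prdx5, Gpx1, Gpx3, Gpx7, Gpx8, Sod3, Gsta4, Gstm1 and Gstm5. For the other 34 at least 1 array moved it further, and for 15 of these the sign turned. The measure is relative, so a difference near 0 fails it after a small shift. Sod1, at 0.0087, ran from -0.080 to 0.14 and counts among the 15. The same counts over all genes were not made.

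**Figure D2:**
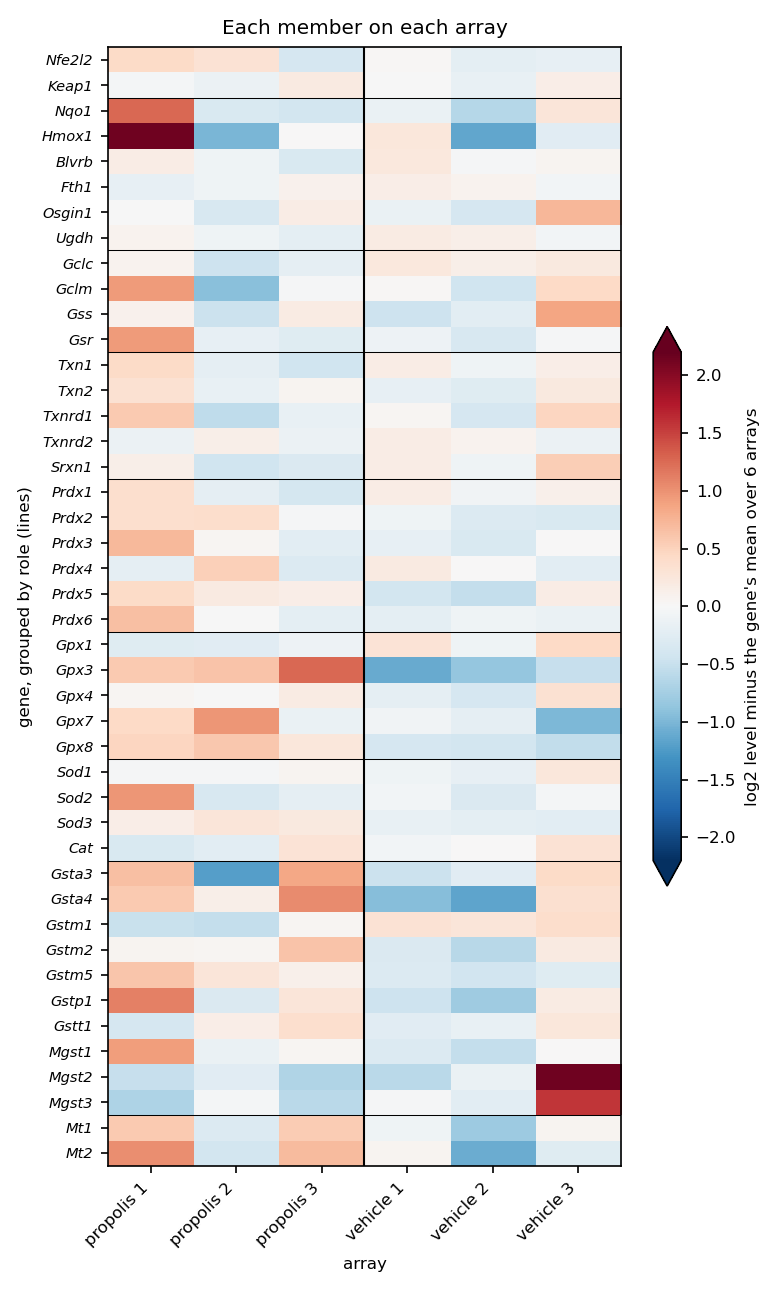
The heat map gives each tested member on each of the 6 arrays as its log2 level minus its own mean over the arrays (red above, blue below), propolis arrays on the left and rows grouped by role. Propolis 1 is the highest array for 18 of the 44 members and vehicle 2 the lowest for 17, while the pair Mgst2 and Mgst3 is highest on vehicle 3.

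Neither the transcription factor nor its sensor passed the test. Nfe2l2 had levels of 4.61, 4.51 and 3.81 in propolis and 4.21, 3.96 and 4.003 in vehicle. Propolis 3 was its lowest array and the other propolis arrays its highest. The difference was 0.25 (95% interval -0.37 to 0.86, adjusted p = 0.781, limma), and it was 0.099 without propolis 1, 0.15 without propolis 2 and 0.50 without propolis 3. Keap1 had 2.66, 2.57 and 2.91 in propolis and 2.70, 2.53 and 2.85 in vehicle, with a difference of 0.02 (-0.42 to 0.46). Its sign was negative with quantile normalization, on the slide 1 arrays alone and without propolis 3 or vehicle 2. NRF2 is controlled mainly by protein stability, which these mRNA levels do not measure.

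Among the members the largest difference was that of Gpx3, a glutathione peroxidase. These enzymes reduce hydrogen peroxide and lipid peroxides, and GPX3 is the secreted plasma form, made in kidney and adipose tissue among other sites. Gpx3 had 5.38, 5.43 and 6.07 in propolis, against 3.69, 3.95 and 4.30 in vehicle. Every propolis array lay more than 1 unit above every vehicle array. The mean was 5.63 ± 0.38 in propolis and 3.98 ± 0.31 in vehicle (SD, n = 3 each), a 3.13-fold higher propolis mean with a log2 difference of 1.65 (1.00 to 2.30) and an adjusted p of 0.0624 (limma). It was 1.59 within slide 1, which held the first and second sample of each group, and 1.77 within slide 2, which held the third. With slide as a block the adjusted p was 0.0227, and over 18 alternative settings it ran from 0.0227 to 0.535, below 0.05 in 4, while the difference stayed between 1.43 and 1.94. In a mixed fraction more cells of a type and more RNA per cell cannot be told apart, and marker lists moved with the group. Mesothelial markers had higher propolis means in 5 of 5, with Wt1 called (adjusted p = 0.0320, limma). Among them Krt19 ran from -0.93 to 1.55 with 1 array left out. Mast cell markers had lower propolis means in 5 of 5, at -0.24 to 0.41 against 0.79 to 0.90 as a list. Adipocyte markers were lower in 7 of 7, endothelial and T cell markers in 5 of 5 each and B cell markers in 4 of 4. Acinar markers were lower in 5 of 5 and intestinal markers in 7 of 7. These lists had overlapping means. The part of these lists in the Gpx3 difference was not tested.

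Gpx8, an enzyme of the endoplasmic reticulum, had 4.77, 4.89 and 4.55 in propolis and 3.93, 3.89 and 3.77 in vehicle. The groups were well apart, and the arrays of each group lay close together. The propolis mean was 1.83-fold higher (log2 difference 0.88, 0.46 to 1.29, adjusted p = 0.0980, limma), and the difference ran from 0.79 to 0.97 over the 18 alternatives with no call. Gpx7, its relative in the same compartment, had a difference of 0.85 (-0.05 to 1.74), with overlapping groups. Gpx1, the abundant cytosolic peroxidase, ran the other way, with 6.82, 6.84 and 6.97 in propolis and 7.39, 6.98 and 7.52 in vehicle. Its groups nearly touch at propolis 3 and vehicle 2, and the difference of -0.42 (-0.90 to 0.06) had an adjusted p of 0.493 (limma). Gpx4, which protects membrane lipids, differed by 0.15 (-0.39 to 0.69), or 0.0068 without vehicle 2 and 0.35 without vehicle 3.

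**Figure D3:**
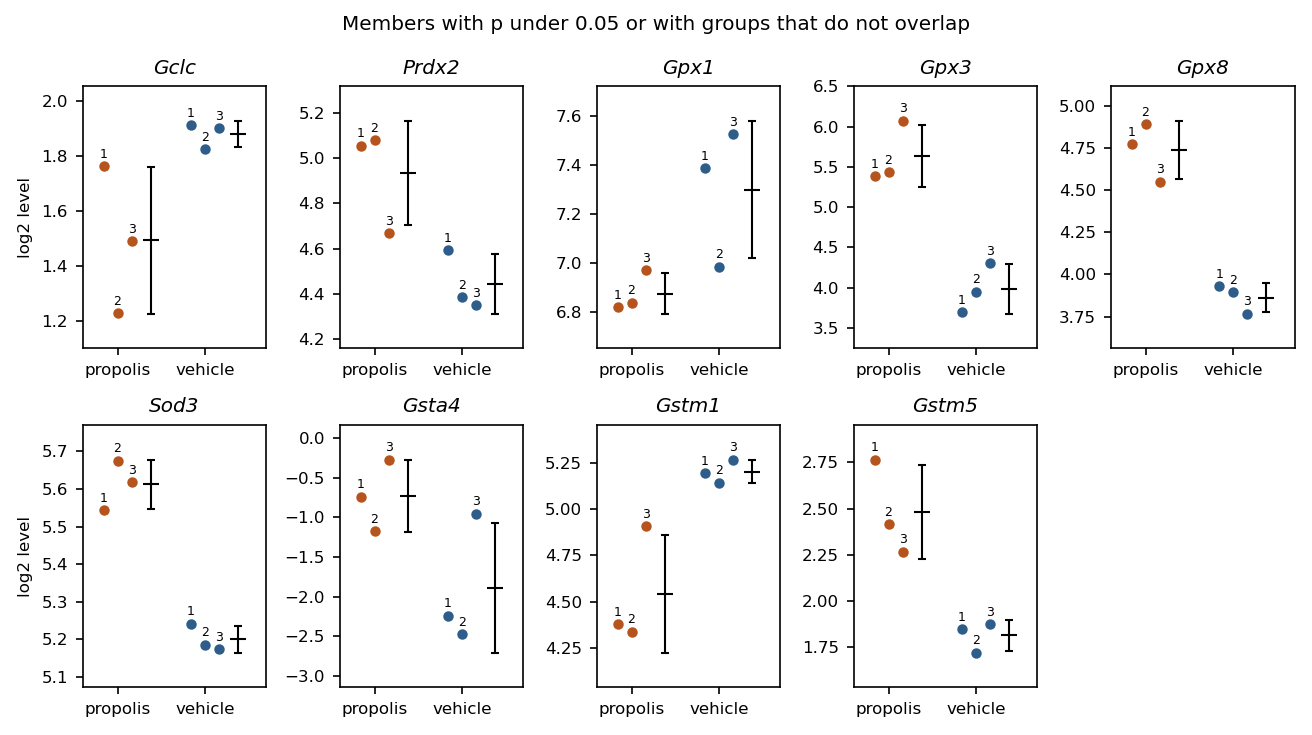
Each panel gives 1 of the 9 members with an unadjusted p below 0.05 or with groups that do not overlap, as the log2 level on each array (points numbered by replicate, propolis left in orange, vehicle right in blue) with mean ± SD (n = 3 each). Gpx3, Gpx8, Sod3, Gstm5 and Prdx2 sit higher in propolis on all 3 arrays, Gstm1, Gpx1 and Gclc lower on all 3, and the Gsta4 groups overlap at vehicle 3.

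The superoxide dismutases convert superoxide to hydrogen peroxide in different places, and only the extracellular form had separated groups. Sod3 had 5.54, 5.68 and 5.62 in propolis and 5.24, 5.19 and 5.17 in vehicle. Both groups were tight and the difference of 0.41 (0.05 to 0.78), a 1.33-fold higher propolis mean, was about the same within slide 1 (0.40) and within slide 2 (0.44). Its adjusted p was 0.365 (limma). The cytosolic Sod1 differed by 0.01 (-0.43 to 0.45). The mitochondrial Sod2, with levels of 5.57, 4.24 and 4.40 in propolis and 4.52, 4.27 and 4.54 in vehicle, was high on propolis 1 and about the same on the other 5 arrays. Its difference was 0.29, and it was -0.13 without propolis 1. Catalase, the peroxisomal enzyme, was the only member whose probes differed in sign: the probe that stands for the gene gave -0.18 (-0.74 to 0.39) and the other 0.15.

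Peroxiredoxins are thiol peroxidases that thioredoxin restores. Prdx2, a cytosolic form, had 5.06, 5.08 and 4.67 in propolis and 4.59, 4.39 and 4.35 in vehicle. Propolis 3 and vehicle 1 were the closest arrays, and the groups did not overlap. The propolis mean was 1.41-fold higher (0.49, 0.03 to 0.95, adjusted p = 0.393, limma). The mitochondrial Prdx5 differed by 0.51 (-0.06 to 1.07) and Prdx3 by 0.34 (-0.33 to 1.02), or 0.07 without propolis 1 and 0.55 without propolis 3. For Prdx5 vehicle 3 lay among the propolis arrays, and for Prdx3 vehicle 3 exceeded propolis 3. Prdx6, which also acts on phospholipids, differed by 0.30 (-0.32 to 0.93), and by 0.04 without propolis 1 and 0.48 without propolis 3. Prdx1, the best known NRF2 target of the family and the window with the AP-1 form of the element, differed by -0.13 (-0.71 to 0.45), and Prdx4 of the endoplasmic reticulum by 0.02 (-0.64 to 0.68).

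Several inducible targets, Hmox1 and Nqo1 among them, were highest on propolis 1, whereas Srxn1 was highest on vehicle 3 and Gclc on vehicle 1. Hmox1, which opens the haem ring, had 6.73, 3.58 and 4.58 in propolis and 4.83, 3.43 and 4.32 in vehicle. Propolis 1 stood 1.90 above the next array, while the other propolis arrays lay inside the range of the vehicle arrays. The mean was 4.96 ± 1.61 in propolis and 4.20 ± 0.71 in vehicle (SD, n = 3 each), and the difference was 0.77 (-1.20 to 2.74, adjusted p = 0.790, limma). Without propolis 1 it was -0.11. A second Hmox1 probe gave 2.72, -0.20 and 1.19 in propolis and 1.36, 0.13 and 0.92 in vehicle, again highest on propolis 1.

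Nqo1, a quinone reductase that is often used as the readout of NRF2, had 0.06, -1.54 and -1.60 in propolis and -1.35, -1.82 and -0.94 in vehicle. Propolis 1 again stood apart, by 1.00, and the other propolis arrays were within the vehicle range. The difference was 0.34 (-0.86 to 1.54, adjusted p = 0.852, limma), and -0.20 without propolis 1. The remaining quinone and haem genes were the biliverdin reductase Blvrb, the iron store subunit Fth1, the growth inhibitor Osgin1 and the UDP-glucose dehydrogenase Ugdh, whose differences ran from -0.18 to -0.12. Ugdh had the lowest p of the group, with a difference of -0.16 (-0.58 to 0.25, adjusted p = 0.789, limma).

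Glutathione synthesis begins with glutamate-cysteine ligase, and its subunits had different profiles over the arrays. The catalytic subunit Gclc had 1.76, 1.23 and 1.49 in propolis and 1.91, 1.82 and 1.90 in vehicle. All propolis arrays were below all vehicle arrays, and the vehicle arrays agreed closely. The difference was -0.39 (-0.85 to 0.08), a 1.31-fold lower propolis mean, with an adjusted p of 0.528 (limma), at -0.37 within slide 1 and -0.41 within slide 2. The modifier subunit Gclm had 0.13, -1.74 and -0.83 in propolis and -0.79, -1.26 and -0.38 in vehicle. Propolis 1 was its highest array and propolis 2 its lowest, so the propolis arrays enclosed the vehicle arrays and the difference was -0.0029 (-1.20 to 1.19). Its sign turned under several scalings and without several arrays.

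Glutathione synthetase Gss differed by -0.13 (-1.08 to 0.82). Glutathione reductase Gsr, which restores glutathione from its oxidised form, had 4.21, 3.08 and 3.00 in propolis and 3.17, 2.91 and 3.25 in vehicle. It was high on propolis 1 only, with a difference of 0.32 (-0.53 to 1.18) that was -0.07 without that array. Slc7a11, which imports the cystine for this pathway, was well above background on propolis 1 and vehicle 3 only. Its measured values were -5.06, -6.99 and -7.01 in propolis and -5.57, -5.56 and -5.22 in vehicle, near the lower end of the scale, where their order carries little.

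In the thioredoxin system 0 of 5 members had groups without overlap, where 17.4% of all genes did. Txnrd1, the cytosolic thioredoxin reductase, had 4.05, 2.91 and 3.32 in propolis and 3.51, 3.11 and 3.96 in vehicle, with propolis 1 and vehicle 3 high together. The difference was -0.10 (-0.96 to 0.76), and it was 0.17 on slide 1 alone. Srxn1, sulfiredoxin, which repairs overoxidised peroxiredoxins, had 3.77, 3.19 and 3.31 in propolis and 3.80, 3.54 and 4.17 in vehicle. Vehicle 3 was highest and the groups overlapped through propolis 1. The difference was -0.41 (-1.01 to 0.19, adjusted p = 0.617, limma), the lowest p of the group, negative in all 18 alternatives. Thioredoxin itself, Txn1, differed by -0.15 (-0.77 to 0.48), and the mitochondrial pair Txn2 and Txnrd2 by 0.16 and -0.08.

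**Figure D4:**
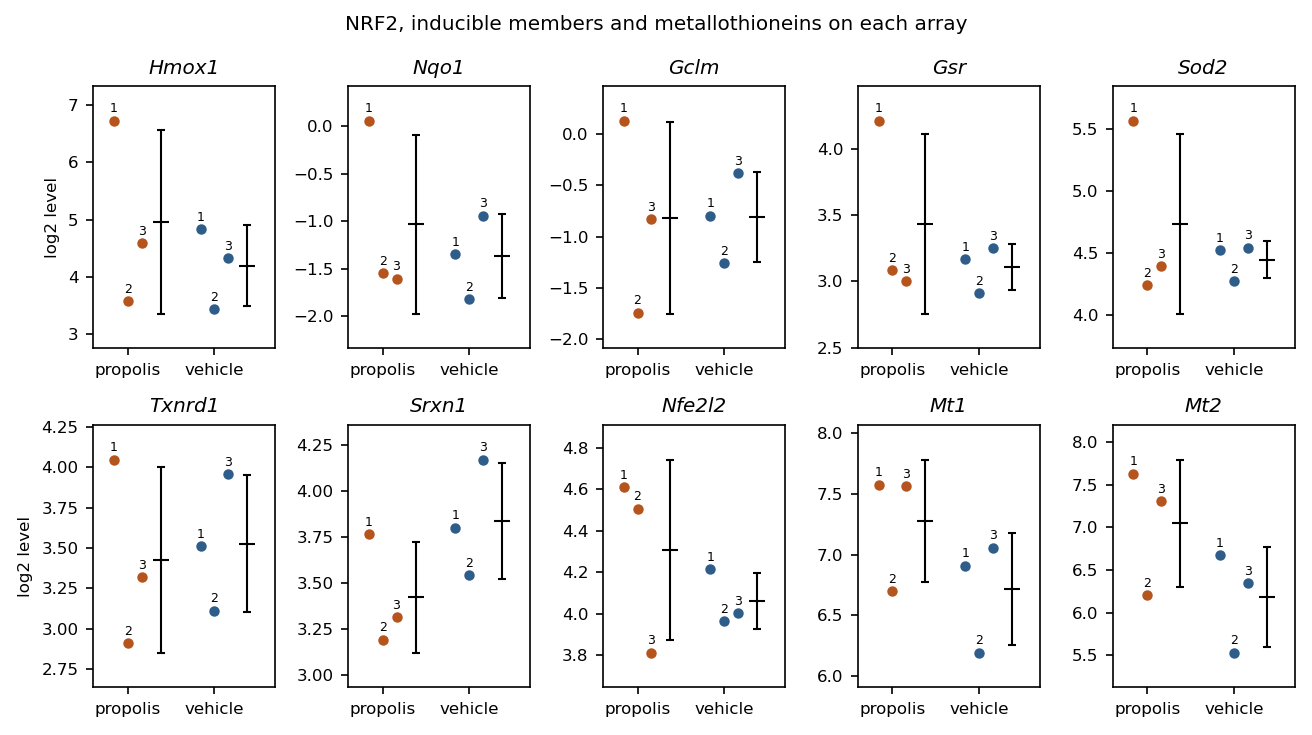
The panels give Nfe2l2, inducible members and the metallothioneins as the log2 level on each array (points numbered by replicate, propolis left in orange, vehicle right in blue) with mean ± SD (n = 3 each). Every panel but Srxn1 is highest on propolis 1, where Hmox1 reaches 6.73. For Hmox1, Nqo1 and Gsr the other propolis arrays lie within the range of the vehicle arrays, while Gclm and Sod2 are lowest on propolis 2.

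Across the 44 members propolis 1 was the highest array for 18 of 44 members (40.9%), while it was highest for 22.1% of all genes. For Hmox1 and Sod2 it exceeded every other array by at least 1 unit, as it did for 0.718% of all genes. Without propolis 1 the members' median difference was -0.0057, with 22 of 44 higher, against 0.15 with it. It was 0.053 without vehicle 2, with 25 of 44 higher, and 0.096 to 0.29 without any other array. Propolis 1 was picked out by the members' own levels, so a lower median without it follows in part from that choice. Vehicle 2 was the lowest array for 17 members (38.6%), against 15.6% of all genes, and the highest for 0 members, against 15.2%. Vehicle 3 was the highest array for 10 members (22.7%), against 14.9% of all genes. The members' median deviation from their own means was 0.37, -0.14 and 0.02 on the propolis arrays and -0.09, -0.24 and 0.15 on the vehicle arrays. All vehicle arrays lay within the range of the propolis arrays except vehicle 2, which was lower. The 75th percentile of processed signal, before scaling, was also highest on propolis 1 (859) and lowest on vehicle 2 (526). It was 597 to 732 on the other arrays. The part of array brightness in this pattern was not tested, nor was that of the acinar and B cell signal in the low values of vehicle 2.

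The glutathione transferases, which join glutathione to electrophiles and lipid aldehydes, differed from one another in direction. Gstm5 had 2.76, 2.42 and 2.27 in propolis and 1.85, 1.72 and 1.88 in vehicle. All propolis arrays lay above all vehicle arrays, and the 1.59-fold higher propolis mean (0.67, 0.20 to 1.13) had an adjusted p of 0.236 (limma). Gsta4, which clears the lipid aldehyde 4-hydroxynonenal, had -0.74, -1.17 and -0.27 in propolis and -2.24, -2.47 and -0.95 in vehicle. Vehicle 3 lay above propolis 2, so the groups overlapped, with a difference of 1.16 (0.07 to 2.25, adjusted p = 0.396, limma) that was 1.63 without vehicle 3 and 0.87 without vehicle 2.

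Gstm1 had 4.38, 4.34 and 4.91 in propolis and 5.19, 5.14 and 5.27 in vehicle. All propolis arrays lay below all vehicle arrays, and the vehicle arrays were close to one another. The propolis mean was 1.58-fold lower (-0.66, -1.16 to -0.15, adjusted p = 0.285, limma). A second, dimmer Gstm1 probe also gave -0.66, but its groups overlapped through propolis 3. Gstm2, in the same gene cluster, differed by 0.48 (-0.20 to 1.16) with overlapping groups, and by 0.29 without propolis 3. The mu class genes are similar in sequence, and cross-hybridization of their probes was not tested. Gstp1 (0.70, -0.33 to 1.73) and the microsomal Mgst1 (0.54, -0.24 to 1.33) were both highest on propolis 1, and without it their differences were 0.32 and 0.22. Gsta3 and Gstt1 differed by 0.20 and 0.10, with overlap. Without 1 array Gsta3 ran from -0.17 (without propolis 3) to 0.85 (without propolis 2), and Gstt1 from -0.06 (without propolis 3) to 0.31 (without propolis 1).

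The microsomal transferases Mgst2 and Mgst3, which also act in leukotriene synthesis, were highest on vehicle 3. Mgst2 had 1.30, 1.56 and 1.14 in propolis and 1.22, 1.65 and 3.95 in vehicle, and Mgst3 had 0.94, 1.58 and 1.04 in propolis and 1.60, 1.39 and 3.19 in vehicle. Vehicle 3 exceeded every other array by 2.29 and 1.59, as it did by at least 1 unit for 2.39% of all genes. The differences of -0.94 (-2.61 to 0.74) and -0.88 (-2.08 to 0.33) became -0.10 and -0.31 without vehicle 3. All 7 of 7 intestinal epithelial markers were also highest on vehicle 3, and so were all 7 of 7 adipocyte markers, whose mean level was 1.38 there and -0.81 to 0.85 on the other arrays. The part of either list in these levels was not tested.

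**Figure D5:**
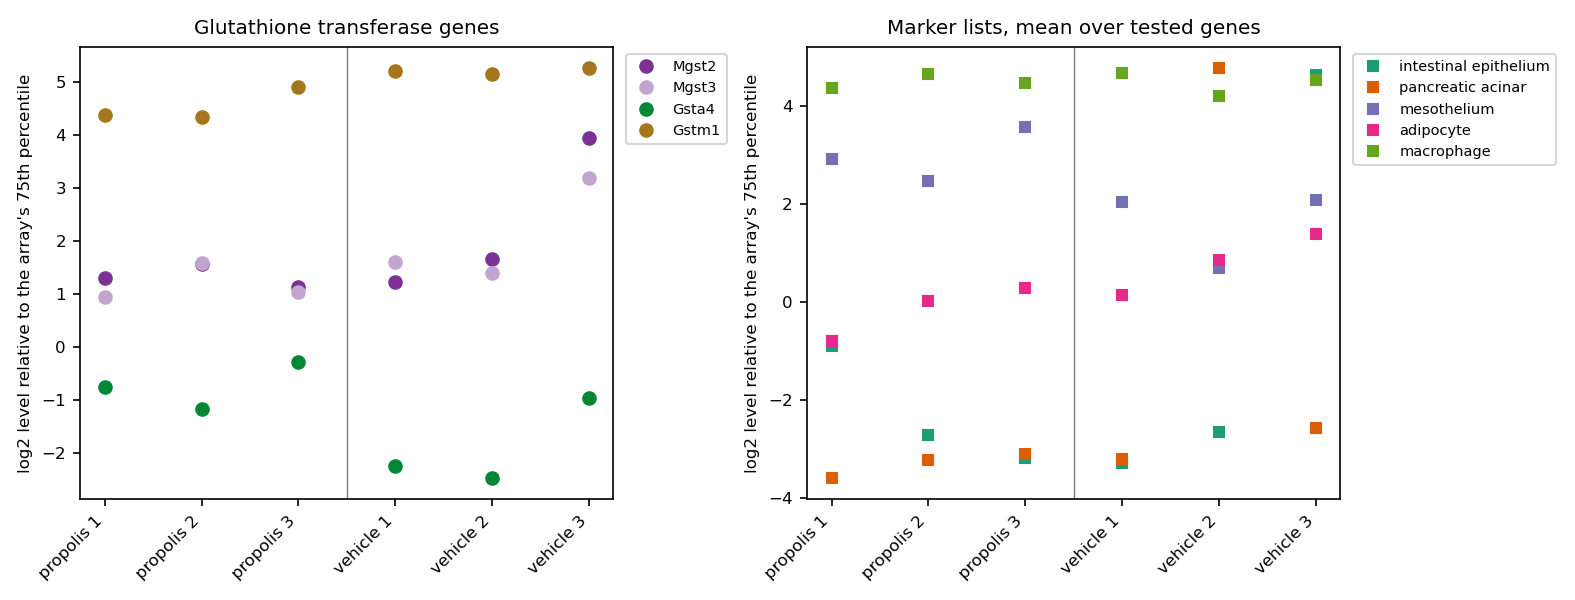
The left panel gives the log2 level of 4 transferase genes and the right panel the mean log2 level of 5 marker lists, on the 6 arrays with propolis on the left. Mgst2 and Mgst3 reach 3.95 and 3.19 on vehicle 3. The intestinal and adipocyte lists are also highest on that array, at 4.62 and 1.38. Gstm1 is lower on every propolis array than on any vehicle array.

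Metallothioneins bind zinc and copper and scavenge radicals, and they answer to metals through MTF1 and to glucocorticoids and oxidants as well. Mt1 had 7.58, 6.70 and 7.56 in propolis and 6.91, 6.19 and 7.06 in vehicle. Mt2 had 7.63, 6.21 and 7.31 in propolis and 6.67, 5.53 and 6.34 in vehicle. In both genes the second sample of each group was its lowest and the other propolis arrays lay above every vehicle array. The differences were 0.56 (-0.27 to 1.39, adjusted p = 0.628, limma) for Mt1 and 0.87 (-0.24 to 1.97, adjusted p = 0.558, limma) for Mt2. Both were positive within slide 1 (0.59 and 0.82), within slide 2 (0.51 and 0.96) and in all 18 alternatives, and no alternative called either gene. Their size depended on the second samples: without vehicle 2 the differences were 0.30 for Mt1 and 0.54 for Mt2, and without propolis 2 they were 0.85 and 1.29. Without propolis 1 the Mt2 difference was 0.57. Within slide 1 each group had 2 arrays, and within slide 2 it had 1.

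The wider pathway was described from 5 further lists, chosen by function, and 0 of their 76 tested genes passed the adjusted threshold in either direction (limma), where 0.834% of all genes did. At an unadjusted p below 0.05 there were 6 (7.89%), against 11.7% of all genes. They were Me1, Abcc3 and Txndc5 with higher propolis means and Cybb, Msra and Tfrc with lower ones. Groups did not overlap for 15 of the 76 (19.7%), against 17.4% of all genes. Among 24 other NRF2 targets 7 had a higher and 17 a lower propolis mean, with a median of -0.14. Of the 24, 9 (37.5%) were highest on vehicle 3, against 14.9% of all genes. The list's mean level was 3.69 there and 2.85 to 3.19 on the other arrays. The part of that array's intestinal signal in these counts was not tested. Malic enzyme Me1, a source of NADPH, had 3.46, 3.07 and 2.91 in propolis and 1.82, 2.11 and 2.05 in vehicle. Its groups were far apart, with a 2.22-fold higher propolis mean (1.15, 0.65 to 1.66, adjusted p = 0.0809, limma), and 2 of 18 alternatives called it. Me1 is also a lipogenic gene. The export pump Abcc3 differed by 0.66 (0.03 to 1.29) and its relative Abcc4 by -0.45 (-0.95 to 0.06), both without overlap. Abcc2 did not pass the filter.

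Among 12 partners and controllers of NRF2, 5 were higher and 7 lower, and 0 had groups without overlap, against 17.4% of all genes. The lowest p values belonged to the coactivator Crebbp (-0.64), the repressor Bach2 (-0.69) and the ubiquitin ligase subunit Rbx1 (0.25). With 1 array left out Crebbp ran from -1.07 to -0.29, Bach2 from -1.12 to -0.23 and Rbx1 from 0.12 to 0.34. Among 11 tested oxidant sources 4 were higher and 7 lower, and Cybb, the catalytic subunit of the phagocyte NADPH oxidase, had -0.08, 0.94 and 0.51 in propolis and 1.38, 1.21 and 1.46 in vehicle. All its propolis arrays lay below all vehicle arrays, and the propolis mean was 1.85-fold lower (-0.89, -1.57 to -0.21, adjusted p = 0.286, limma). Its subunit partner Ncf4 differed by -0.53 and the xanthine oxidoreductase gene Xdh by 0.46.

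Among 18 other glutathione and selenoprotein genes 6 were higher and 12 lower. Of the 18, 9 (50%) were highest on vehicle 3, against 14.9% of all genes. The list's mean level was 3.26 there and 2.08 to 2.28 on the other arrays. Msra, which repairs oxidised methionine, had 1.59, 1.73 and 1.53 in propolis and 2.54, 2.32 and 2.71 in vehicle. The groups were apart, with a 1.87-fold lower propolis mean (-0.90, -1.34 to -0.47, adjusted p = 0.0995, limma). The disulfide isomerase Txndc5 differed by 0.69 (0.24 to 1.13) in the other direction, without overlap. Ggt1, which cleaves extracellular glutathione, differed by -2.88 (-5.90 to 0.15), with 0.66 on vehicle 3 and at most -3.36 on the other arrays. Among 12 metal handling genes 7 were higher and 5 lower, with Tfrc, the transferrin receptor, at -0.71, the zinc and iron importer Slc39a14 at 1.06 and the haem synthesis enzyme Fech at 0.40, each without overlap. Of the 12, 2 were higher and 3 lower without overlap (41.7%), against 17.4% of all genes.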

How the data were processed

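The scanner tables deposited by the authors hold a processed signal, an intensity in arbitrary units corrected for background by Agilent Feature Extraction 10.7.3.1, per the submitters' processing notes. The deposited series table, in log2 values, was used as an alternative only. Here the processed signal was turned to log2, non-uniform spots were left out, spots of a probe were averaged and the 75th percentile of each array was subtracted. Probes well above background on at least 3 of 6 arrays entered (34786 of 55681), and the brightest stood for its gene. Symbols came from RefSeq accessions (GRCm38.p6, names only for probes; array design on mm9). The test was limma's (version 3.58.1, R 4.3.3; lmFit and eBayes, two-sided, no block), with Benjamini-Hochberg adjustment over 25777 genes, and the steps were tested on simulated data. Normexp was run on median signals, since the scanner tables hold no mean signals.

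The members, the further lists and the marker lists were chosen with earlier results of these data known. Members with an unadjusted p below 0.05 and a named set of NRF2 genes are given on every array, with up to 3 genes of lowest p for each further list. The array values of Gpx1, Sod2, Gsr, Mgst2 and Mgst3 were added after they were seen. Alternatives covered background correction, scaling, the filter, the probe rule, the variance model, the series table, slide and replicate blocks and arrays left out. Other marker lists had mean levels, on propolis and on vehicle arrays, of -0.81 to 0.29 and 0.13 to 1.38 (adipocyte), 0.81 to 1.88 and 1.74 to 2.19 (endothelium), 1.45 to 2.33 and 1.79 to 3.30 (T cell), 0.68 to 1.30 and 0.28 to 1.90 (erythroid), -0.39 to 0.67 and -1.04 to 1.69 (neutrophil), -2.73 to -0.12 and -3.83 to -0.53 (hepatocyte), and -0.24 to 0.41 and 0.79 to 0.90 (mast cell).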

Additional observations from a re-analysis of the deposited data

How the results depend on the processing

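No member was called in 14 of 18 alternatives. Gpx3 was called with normexp (1.66, adjusted p = 0.0396), median scaling (1.68, 0.0487), trended robust variance (0.0359) and slide as a block (0.0227), 1 member in each. It was not called without any 1 array (0.0852 to 0.231, limma). The 215 genes called overall became 106 without the filter, 73 with the replicate block, 0 on slide 1 alone (5856 at an unadjusted p below 0.05, limma) and 0 without vehicle 2 and 3 together (1362), against 3020. It became 77, 11 and 94 without propolis 1, 2 and 3, and 53, 11 and 41 without vehicle 1, 2 and 3. The members' median ran from -0.0057 (without propolis 1) to 0.290 (without vehicle 3). The replicate block called 0 members, with an adjusted p of 0.212 for Mt1 and 0.132 for Mt2 (limma). Same-numbered samples' deviations correlated at 0.036, 0.29 and 0.14 across genes, and differently numbered ones at -0.31 to 0.21. The labels state no pairing, and these values do not settle whether samples were paired. Signs turned for 15 members without at least 1 array, Hmox1, Nqo1, Gsr and Sod2 among them without propolis 1. Sod1 and Keap1, with differences near 0, were also among the 15. Gclm became 0.016 with normexp, 0.019 with quantile normalization, 0.034 with median scaling and 0.22 on slide 1, and ran from -0.48 to 0.46 without 1 array. Keap1 became -0.051 with quantile normalization and -0.00036 on slide 1, and ran from -0.078 to 0.10 without 1 array. Txnrd1 became 0.17 on slide 1 and ran from -0.41 to 0.16. Nqo1 ran from -0.20 to 0.63 and Hmox1 from -0.11 to 1.46. The causes were not tested. With 3 arrays a group the intervals above are wide, so a gene that was not called cannot be taken as unchanged.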
